A study of Mus musculus with 11 samples.

Results

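The comparison described here sets the livers of mice that drank Curaxin-137 at 0.2 mg/ml against the livers of mice that drank plain water. It was defined by sample title, which gave 2 liver arrays at 0.2 mg/ml (replicates 73 and 85) and 2 liver control arrays (replicates 1 and 25), 4 of the 11 arrays of the series. The other 7 arrays were 2 livers at 0.1 mg/ml (replicates 43 and 55), 2 spleen arrays at 0.2 mg/ml, 2 at 0.1 mg/ml and 1 control spleen array. The spleen arrays at 0.2 mg/ml are labelled 62 and 62_86, and the labels do not say whether they hold separate mice. All mice, controls included, carried a Her2/neu transgene, which gives rise to mammary tumours. They were treated for 10 weeks, from 4 to 14 weeks of age, with 2 mice in each group, and 1 array held the RNA of 1 liver. The promoter of the transgene, the strain and the sex of the mice are not given in the labels.

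Curaxins are small molecules that bind DNA without breaking it. They trap FACT, a histone chaperone that takes nucleosomes apart for transcription, on chromatin, and in cultured tumour cells this is known to activate the tumour suppressor p53 and to inhibit NF-kB, the master regulator of inflammatory genes. The liver is the organ that takes up and oxidises drugs arriving from the gut. Most of its mass is hepatocytes, which make plasma proteins, bile acids, lipids and urea, and these share the organ with sinusoidal endothelial cells, Kupffer cells (the resident macrophages) and stellate cells.

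Values are log2 intensities after background correction and quantile normalization, and a difference of 1 on this scale is a 2-fold ratio of intensities. Of 45281 probes, those detected in liver were reduced to 12800 features, 10246 of them with a gene name. The liver arrays had mean signals of 114 to 146 and detected 35.8% to 38.1% of probes. The genes that define liver were high on all 6 liver arrays, with a mean of 13.3 for Apoa1, Ttr and Ahsg, against 4.64, 4.82 and 4.35 in spleen, while the albumin probe was weak at 5.50 in liver. Genes that male mouse liver is known to express strongly, Mup20, Hsd3b5 and Cyp4a12a, were detected on 6 of 6 liver arrays with values of 8.96 to 12.04, and the 4 probes of Xist, which is expressed from the inactive X chromosome of females, on 0 arrays. These genes were chosen after their values were seen. With so few arrays all values are imprecise, and the p-values measure only the spread between these samples.

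The 2 control livers were not alike, which bears on every comparison with them. The arrays at 0.2 mg/ml correlated at 0.992 over the 12800 features, and 35 features lay more than 1 log2 unit apart. The control arrays correlated at 0.971, and 459 features lay more than 1 log2 unit apart. Control replicate 25 carried high values of acute phase genes, which hepatocytes make during inflammation, and of neutrophil genes. Saa1, which encodes serum amyloid A, read 8.80 and 10.98 at 0.2 mg/ml, against 7.28 on control replicate 1 and 13.47 on control replicate 25. Lcn2, which encodes an iron-scavenging protein of neutrophils and inflamed liver, read 7.10 and 8.05 at 0.2 mg/ml, against 4.53 and 11.50 on control replicates 1 and 25. The calprotectin gene S100a8, a neutrophil marker, read 5.88 and 5.89 at 0.2 mg/ml, against 5.48 and 9.81 in the controls. Saa1 and Lcn2 at 0.2 mg/ml thus lay between the 2 controls, above replicate 1 and below replicate 25. These acute phase genes and Orm2, Saa2, Saa3 and Mt2 in the plot by array were chosen after their values were seen. List medians are therefore shown over all 4 arrays and without each control in the plot of list medians, and in the text for the lists described at length.

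**Figure D1:**
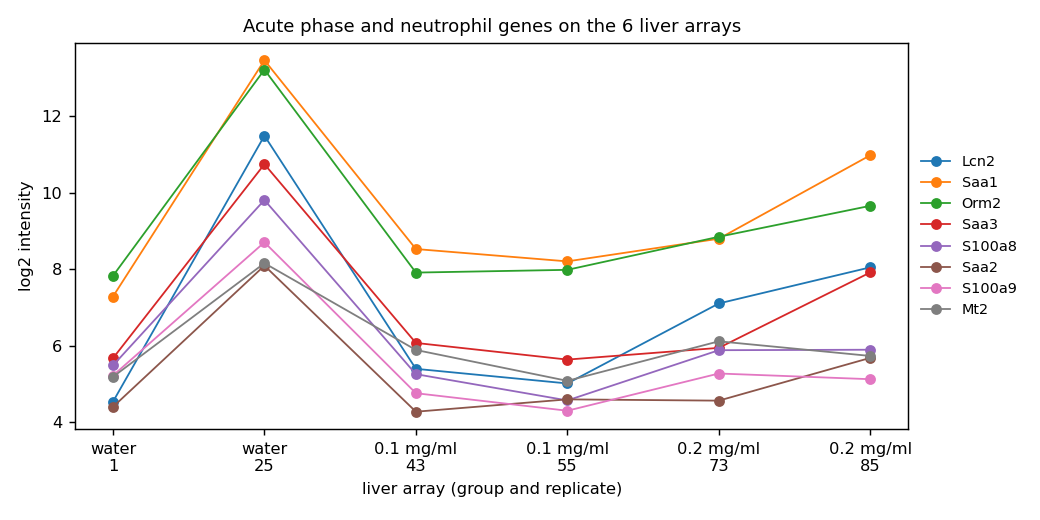
Log2 intensity of the 8 acute phase and neutrophil genes that differed most between the 2 control livers (y axis), on each of the 6 liver arrays (x axis), with 1 line per gene. On control replicate 25 Lcn2 stood at 11.50 and Saa1 at 13.47, above all other liver arrays, while the 0.2 mg/ml arrays read 7.10 and 8.05 for Lcn2.

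No gene passed its test in this comparison. At a Benjamini-Hochberg adjusted p under 0.05 (limma), 0 of 12800 features were called (0.00%), and the smallest adjusted p was 0.179. At an unadjusted p under 0.05, 632 features read higher (4.94%) and 492 read lower (3.84%). The 0.2 mg/ml arrays lay wholly above the controls in 2587 features (20.2%) and wholly below them in 2362 (18.5%), and the median difference over all features was 0.01. Under scaling to the 75th percentile the split at an unadjusted p under 0.05 moved to 31.4% higher, against 56.2% with quantile normalization, and 1 feature was called. The number of calls also depended on the controls, with 542 features called without control replicate 25 and 175 without control replicate 1. Both of these fits have a single control array, which is assumed to vary like the treated livers. The genes below are therefore given by their values and not as changes, and the counts of each list are set beside these shares.

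The gene with the smallest p-value was Csad, which encodes the enzyme that makes hypotaurine from cysteine sulfinate, the committed step of taurine synthesis. It read 7.35 and 7.83 at 0.2 mg/ml, against 10.55 and 9.71 in the controls. The groups did not overlap, and the difference was -2.54 (SE 0.29, adjusted p = 0.179). A second Csad probe gave -2.63. At 0.1 mg/ml the gene read 10.90 and 10.58, so both arrays of the lower dose lay above both controls. The difference of 0.2 from 0.1 mg/ml was -3.15 (SE 0.29, adjusted p = 0.0571), the smallest adjusted p of that comparison.

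Over the 19 measured genes of sulfur amino acid and taurine metabolism, 11 read lower and 8 higher, beside 48.6% lower and 51.4% higher over all features. Of these genes 8 lay wholly below and 5 wholly above the controls, beside 18.5% and 20.2% of all features. The list median was -0.07, and 0.0046 without 0.2 mg/ml replicate 85. The other 3 members with the smallest p-values read lower. Cbs, the enzyme that joins homocysteine to serine, read 8.66 and 8.82 at 0.2 mg/ml, against 9.57 and 9.76 in the controls (difference -0.93, SE 0.17, adjusted p = 0.288). Ethe1, which oxidises sulfide in mitochondria, read 7.41 and 7.46, against 8.38 and 8.02 in the controls (-0.77, SE 0.18, adjusted p = 0.319). Slc6a13, a transporter that carries taurine into hepatocytes, read 10.03 and 10.14 against 10.51 and 10.59 in the controls (-0.47, SE 0.17, adjusted p = 0.483). In none of these did the groups overlap. Gnmt, which uses up excess S-adenosylmethionine and was named after its values were seen, read 12.88 and 12.63 at 0.2 mg/ml, against 11.85 and 12.44 in the controls (0.61, SE 0.22, adjusted p = 0.491).

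The second smallest p-value belonged to Atf5, a transcription factor induced by amino acid shortage and mitochondrial stress. It read 8.37 and 7.96 at 0.2 mg/ml, against 9.87 and 9.96 in the controls and 10.13 and 9.64 at 0.1 mg/ml. The difference from the controls was -1.75 (SE 0.22, adjusted p = 0.179). Atf5 belongs to the integrated stress response, in which the factor ATF4 turns on amino acid synthesis, amino acid uptake and tRNA charging when amino acids run short or the endoplasmic reticulum is loaded.

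Asns, the asparagine synthetase gene and a textbook ATF4 target, was near the detection limit at 0.2 mg/ml. It read 4.29 and 4.48, the first of these undetected, against 6.23 and 5.82 in the controls (-1.64, SE 0.26, adjusted p = 0.224). Aars, which encodes alanyl-tRNA synthetase, read 9.21 and 9.07 against 9.82 and 9.88 in the controls (-0.72, SE 0.15, adjusted p = 0.299). Mthfd2, a mitochondrial folate enzyme, read 4.41 and 4.57 against 5.03 and 5.47 in the controls (-0.76, SE 0.19, adjusted p = 0.341). All 3 genes lay wholly below the controls. Fgf21, a hormone that the liver releases during fasting and amino acid shortage, was undetected on both arrays at 0.2 mg/ml (4.31 and 4.37) and read 4.97 and 4.95 in the controls, at least 1.47-fold lower (adjusted p = 0.364). For this bound, values below an array's dimmest detected probe were raised to the level of that probe. The serine synthesis gene Psat1 (-0.83), the seryl-tRNA synthetase gene Sars (-0.47) and the lipoprotein receptor gene Vldlr (-0.70), named after their values were seen, also lay wholly below the controls.

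Over the amino acid and integrated stress response list, 18 of 26 measured genes read lower, with 13 wholly below and 0 wholly above the controls, beside 18.5% and 20.2% of all features. At an unadjusted p under 0.05, 8 read lower and 0 higher. The list median was -0.22 over the 4 arrays, -0.26 without control replicate 1 and -0.18 without control replicate 25. Against the 0.1 mg/ml livers, a comparison that shares the 0.2 mg/ml arrays, the median was -0.24. The 8 members that read higher reached at most 0.23. The genes of the endoplasmic reticulum stress list were evenly split, with 10 of 20 higher, 10 lower and a median of 0.00. Under scaling to the 75th percentile, 15 of these 20 read lower, with a median of -0.11. The same scaling gave -0.36 for the amino acid and integrated stress response list and -0.02 over all features.

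The promoters of the leading members are shown because ATF4 and its partners bind a short composite sequence, the amino acid response element. The letters TGATGNAA were searched on both strands in the 250 bases before the RefSeq start site (GRCm38.p6), and matches are in capitals. Of the 8 list genes that read lower at an unadjusted p under 0.05, 4 had a match (Asns, Aars, Fgf21 and Vldlr) and 4 had none (Atf5, Mthfd2, Psat1 and Sars). Over the measured list, 8 of 24 genes with a window had a match, beside 2.49% of all 8309 measured genes with a window and 3.45% of all 32851 windows. The list was made up of amino acid and integrated stress response genes, so this share describes the list and not these livers. The windows lie at chr6:7693210-7693459 on the minus strand (Asns), chr8:111033592-111033841 on the plus strand (Aars) and chr7:45615491-45615740 on the minus strand (Fgf21). The match begins 23 bases before the start of Asns, 112 before that of Aars and 139 before that of Fgf21, in the last 2 on the opposite strand, so that the printed letters are the reverse complement. A match is a string of letters and was not tested as a binding site.
Asns: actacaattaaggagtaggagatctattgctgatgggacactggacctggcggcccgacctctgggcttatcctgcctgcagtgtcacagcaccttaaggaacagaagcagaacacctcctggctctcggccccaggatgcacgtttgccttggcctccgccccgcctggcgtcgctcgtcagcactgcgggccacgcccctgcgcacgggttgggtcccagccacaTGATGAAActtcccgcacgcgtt
Aars: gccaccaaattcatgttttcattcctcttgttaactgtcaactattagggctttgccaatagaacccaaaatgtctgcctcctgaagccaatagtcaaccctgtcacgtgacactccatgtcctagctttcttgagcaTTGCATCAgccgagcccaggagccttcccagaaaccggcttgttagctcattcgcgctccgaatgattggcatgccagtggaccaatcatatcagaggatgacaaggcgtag
Fgf21: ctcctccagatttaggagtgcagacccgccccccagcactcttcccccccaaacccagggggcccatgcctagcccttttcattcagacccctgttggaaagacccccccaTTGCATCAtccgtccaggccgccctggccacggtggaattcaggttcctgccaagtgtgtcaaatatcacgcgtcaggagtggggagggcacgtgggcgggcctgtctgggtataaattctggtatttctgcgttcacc

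Of the genes of amino acid breakdown and the urea cycle, more read higher than lower, by a margin that depended on the scaling. Ddo, which oxidises D-aspartate, read 7.62 and 7.70 at 0.2 mg/ml, against 6.58 and 6.53 in the controls (1.10, SE 0.17, adjusted p = 0.221). Otc, the urea cycle enzyme that makes citrulline, read 8.17 and 7.91 against 7.12 and 7.33 in the controls (0.81, SE 0.17, adjusted p = 0.299). Dmgdh, which demethylates dimethylglycine, read 8.26 and 8.44 against 7.66 and 7.73 in the controls (0.66, SE 0.16, adjusted p = 0.319). The groups did not overlap in any of them. Prodh, the first enzyme of proline breakdown, read 10.31 and 10.37 at 0.2 mg/ml, against 9.90 and 9.72 in the controls (0.53, SE 0.16, adjusted p = 0.390).

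Of the 37 measured genes of this list, 28 read higher and 9 lower, where 51.4% and 48.6% of all features did. Wholly above the controls were 13, and 1, Sardh (-0.52), was wholly below, beside 20.2% and 18.5% of all features. Of the urea cycle genes, Otc, Cps1 (0.58) and Asl (0.39) lay wholly above the controls, while Ass1 (0.03), Arg1 (0.03) and Nags (-0.05) overlapped them. Sardh and the urea cycle genes other than Otc were named after their values were seen. The list median was 0.18 over the 4 arrays, 0.08 without control replicate 1 and 0.41 without control replicate 25, and 0.03 under scaling to the 75th percentile, where 20 of the 37 read higher. Most of this shift was absent without control replicate 1 and under that scaling.

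**Figure D2:**
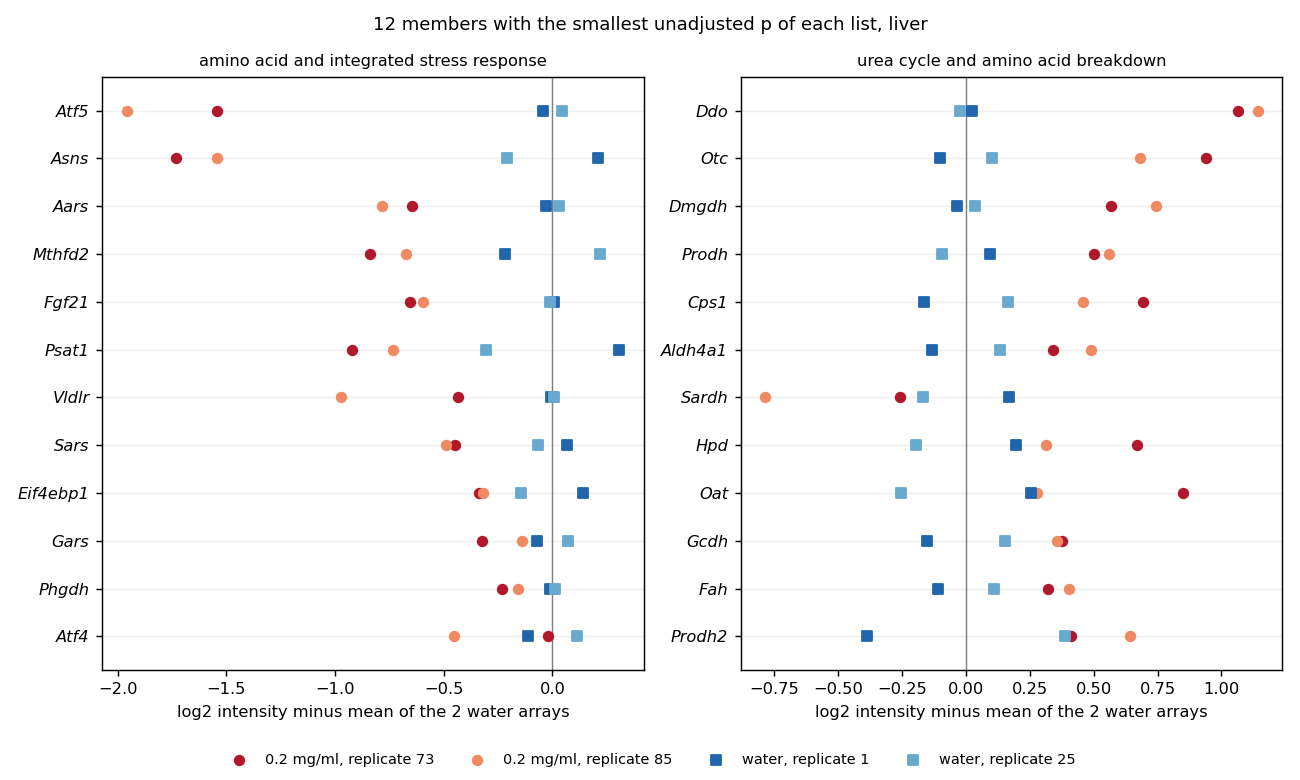
The 12 genes with the smallest unadjusted p of the amino acid and integrated stress response list (left) and of the urea cycle and amino acid breakdown list (right), with each array's log2 intensity minus the mean of the 2 water arrays on the x axis. Circles are the 0.2 mg/ml arrays and squares the water arrays. The mean difference from the controls was -1.75 for Atf5, -1.64 for Asns and 1.10 for Ddo.

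Among the cytochromes that oxidise drugs, Cyp3a11 stood apart. It encodes a main drug-oxidising enzyme of mouse liver and a target of the drug sensor PXR. It read 11.03 and 11.48 at 0.2 mg/ml, against 12.67 and 12.66 in the controls and 13.02 and 12.86 at 0.1 mg/ml. The difference from the controls was -1.41 (SE 0.19, adjusted p = 0.206), and that from 0.1 mg/ml was -1.68 (adjusted p = 0.125). The related sensor CAR controls cytochromes of the Cyp2b and Cyp2c families, of which several read higher. Cyp2c50 read 12.69 and 12.47 at 0.2 mg/ml, against 11.94 and 11.57 in the controls (0.83, SE 0.18, adjusted p = 0.309). Cyp2b9 read 8.19 and 7.66 against 4.73 and 7.38 in the controls (1.87, SE 0.71, adjusted p = 0.507), so that most of its difference came from control replicate 1. Cyp2c37 read 12.48 and 11.99 against 11.87 and 11.25 in the controls (0.68, SE 0.26, adjusted p = 0.524). The Cyp2c genes are near-identical copies, and the specificity of their probes was not tested.

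The list of CAR and PXR targets and drug-oxidising cytochromes as a whole had 17 of 25 genes higher and 8 lower. It had 5 wholly above and 4 wholly below the controls, near the 20.2% and 18.5% of all features. The median was 0.11, which became 0.01 without control replicate 1 and 0.07 without control replicate 25. The drug and organic ion transporters had 13 of 18 genes higher and a median of 0.17, which became 0.26 without control replicate 1, 0.06 without 0.2 mg/ml replicate 73 and 0.0025 without control replicate 25, where 9 of 18 read higher. They were led by Abcg8, which secretes sterols into bile, at 9.89 and 10.04 against 9.32 and 8.73 in the controls (0.94, SE 0.22, adjusted p = 0.319). Conjugating enzymes had a median of 0.03 over 38 genes, which became 0.17 without control replicate 1 and -0.15 without control replicate 25. Their smallest p-values belonged to the glutathione transferase gene Gstm4 at -0.82 and the sulfotransferase gene Sult1a1 at 0.72.

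Genes that the antioxidant factor NRF2 controls read lower as a list. Srxn1, which restores oxidised peroxiredoxins, read 6.84 and 6.84 at 0.2 mg/ml, against 7.47 and 7.52 in the controls (-0.66, SE 0.18, adjusted p = 0.376). Gclm, a subunit of the enzyme that limits glutathione synthesis, read 9.20 and 9.34 against 9.94 and 9.66 in the controls (-0.53, SE 0.17, adjusted p = 0.420). The thioredoxin gene Txn1 (-0.72) and the carbonyl reductase gene Cbr1 (-0.75) lay wholly below the controls as well. Of 21 measured genes, 17 read lower, with 10 wholly below and 0 wholly above the controls (18.5% and 20.2% of all features). The median was -0.12 over the 4 arrays, -0.13 without control replicate 1 and -0.29 without control replicate 25. Proteasome subunits, the parts of the machine that degrades proteins, had 23 of 27 genes lower and a median of -0.20. Of these genes 13 lay wholly below and 2 wholly above the controls, beside the same shares of all features. The largest difference among their 4 smallest p-values was that of the regulatory subunit gene Psmd11, at -0.86.

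Genes of fatty acid and sterol synthesis read lower, and the median of the sterol list depended on control replicate 25. Pklr, the pyruvate kinase of liver, read 5.95 and 5.77 at 0.2 mg/ml, against 6.65 and 6.37 in the controls (-0.65, SE 0.17, adjusted p = 0.364). Elovl5, a fatty acid elongase, read 11.68 and 11.85 against 12.13 and 12.58 in the controls (-0.59, SE 0.19, adjusted p = 0.423). The fatty acid synthase gene Fasn was undetected on both 0.2 mg/ml arrays and at least 1.36-fold lower than in the controls (adjusted p = 0.364). Lpin1, which encodes a phosphatidate phosphatase and coactivator of fasting genes, was 1 of 4 genes of the fatty acid list that read higher. It stood at 8.50 and 8.49 against 6.83 and 8.05 in the controls (1.05, SE 0.34, adjusted p = 0.423). Of the 23 measured genes of fatty acid and triglyceride synthesis, 19 read lower and 11 lay wholly below the controls (18.5% of all features). The median was -0.32 over the 4 arrays, -0.53 without control replicate 1 and -0.23 without control replicate 25.

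In the sterol list, 17 of 18 genes read lower and 8 lay wholly below the controls (18.5% of all features). Mvd, an enzyme of the mevalonate pathway, read 5.73 and 5.82 at 0.2 mg/ml, against 6.26 and 7.61 in the controls (-1.16, SE 0.37, adjusted p = 0.423). Sc5d, a late enzyme of cholesterol synthesis, read 6.71 and 6.85 against 7.37 and 7.96 in the controls (-0.89, SE 0.30, adjusted p = 0.441). In both genes the higher control was replicate 25. The list median of -0.34 became -0.67 without control replicate 1 and -0.04 without control replicate 25, where 8 of the 18 genes read higher. The sterol shift thus rested on control replicate 25.

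PPAR-alpha targets, the genes of fatty acid oxidation, had no common direction, with 19 of 33 higher and a median of 0.04. Decr1, a mitochondrial reductase for unsaturated fatty acids, read 7.54 and 7.70 at 0.2 mg/ml, against 6.77 and 6.67 in the controls (0.91, SE 0.16, adjusted p = 0.284). Angptl4, which inhibits lipoprotein lipase and rises on fasting, read 9.89 and 9.95 against 9.21 and 9.48 in the controls (0.58, SE 0.17, adjusted p = 0.376). Pparg, the adipocyte regulator that liver expresses at a low level, read 4.81 and 4.65 against 6.62 and 5.96 in the controls (-1.56, SE 0.26, adjusted p = 0.280). Klb, the coreceptor for Fgf21, read 6.58 and 6.83 against 7.41 and 7.64 in the controls (-0.82, SE 0.21, adjusted p = 0.354).

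Genes of fasting and glucose handling included several with wide gaps. Ppp1r3g, which brings protein phosphatase to glycogen after feeding, read 7.71 and 8.69 at 0.2 mg/ml, against 4.66 and 6.19 in the controls (2.78, SE 0.57, adjusted p = 0.297), the largest positive difference of all 12800 features. It was also high at 0.1 mg/ml, at 9.11 and 7.80. Irs2, the insulin receptor substrate of liver, read 7.24 and 7.76 against 6.32 and 6.53 in the controls (1.08, SE 0.23, adjusted p = 0.297). Igfbp2, a binding protein for insulin-like growth factors, read 9.11 and 9.56 against 10.54 and 9.83 in the controls (-0.85, SE 0.26, adjusted p = 0.404). Of the 26 measured genes of gluconeogenesis, fasting and insulin signalling, 16 read higher, with 10 wholly above and 3 wholly below the controls (20.2% and 18.5% of all features). The median was 0.09, or 0.04 without control replicate 1 and 0.18 without control replicate 25.

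Immediate early genes and phosphatases of the MAP kinases, which respond to growth and stress signals within minutes to hours, read higher. Dusp6, the phosphatase that switches off ERK, read 9.46 and 9.40 at 0.2 mg/ml, against 7.99 and 8.22 in the controls (1.32, SE 0.19, adjusted p = 0.206), and its second probe gave 1.26. Dusp1, which acts on p38 and JNK, read 10.22 and 9.46 against 7.04 and 8.31 in the controls (2.16, SE 0.45, adjusted p = 0.297). Spred1, an inhibitor of the Ras pathway, read 7.12 and 7.12 against 6.38 and 6.41 in the controls (0.72, SE 0.17, adjusted p = 0.319). The arrays at 0.1 mg/ml lay between the groups for Dusp6, at 8.29 and 8.69. Over the list, 18 of 25 genes read higher, and 10 lay wholly above and 3 wholly below the controls (20.2% and 18.5% of all features). The median was 0.31, 0.11 without control replicate 1 and 0.29 without control replicate 25. With undetected genes of the list kept as well, it was 0.046.

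Clock genes had no common direction, with 10 of 18 higher and a median of 0.06. Per2, a repressor of the clock, read 9.08 and 9.18 at 0.2 mg/ml, against 8.00 and 8.25 in the controls (1.01, SE 0.20, adjusted p = 0.297). Nr1d1, which falls and rises opposite to the activator Bmal1 over the day, read 4.62 and 4.25 against 6.58 and 4.68 in the controls (-1.19, SE 0.51, adjusted p = 0.559). Both genes change with the hour of the day, and the hour at which tissue was taken is not given in the labels, so its part in these values was not tested.

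The remaining genes with the smallest p-values came from several roles. Of those reading higher, Tox, a chromatin protein best known from T cells, read 6.70 and 6.30 at 0.2 mg/ml, against 4.93 and 5.04 in the controls (1.52, SE 0.19, adjusted p = 0.179). Gadd45g, a growth arrest gene induced by stress, read 11.57 and 11.79 against 8.57 and 10.06 in the controls (2.37, SE 0.44, adjusted p = 0.288), and its second probe gave 2.13. Cdkn1c, the cyclin-dependent kinase inhibitor p57, read 6.57 and 6.55 against 5.58 and 5.71 in the controls (0.91, SE 0.16, adjusted p = 0.280). In all 3 genes the groups did not overlap, and for Gadd45g control replicate 1 was the lower control.

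Gpcpd1, which splits glycerophosphocholine, differed by 1.20 and the muscleblind splicing factor gene Mbnl2 by 0.93. Lingo4, Lonrf3 and Ablim3 differed by 0.90, 1.18 and 0.93, and 1 of the 2 other probes of Ablim3 gave -0.13. Of those reading lower, Srpr, the receptor that docks ribosomes at the endoplasmic reticulum, read 6.03 and 5.84 at 0.2 mg/ml, against 6.95 and 7.14 in the controls (-1.11, SE 0.18, adjusted p = 0.280). The tubulin gene Tubb4b read 8.28 and 8.21 against 9.19 and 9.46 in the controls (-1.08, SE 0.18, adjusted p = 0.280). Lgals9, which encodes the lectin galectin-9, differed by -1.05, with 1 of its 2 other probes at -0.74 and the other at 0.03. Smagp, Sel1l3 and Cspg5 differed by -1.12, -1.26 and -1.002. All of these had groups that did not overlap, which the rule for naming them required.

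**Figure D3:**
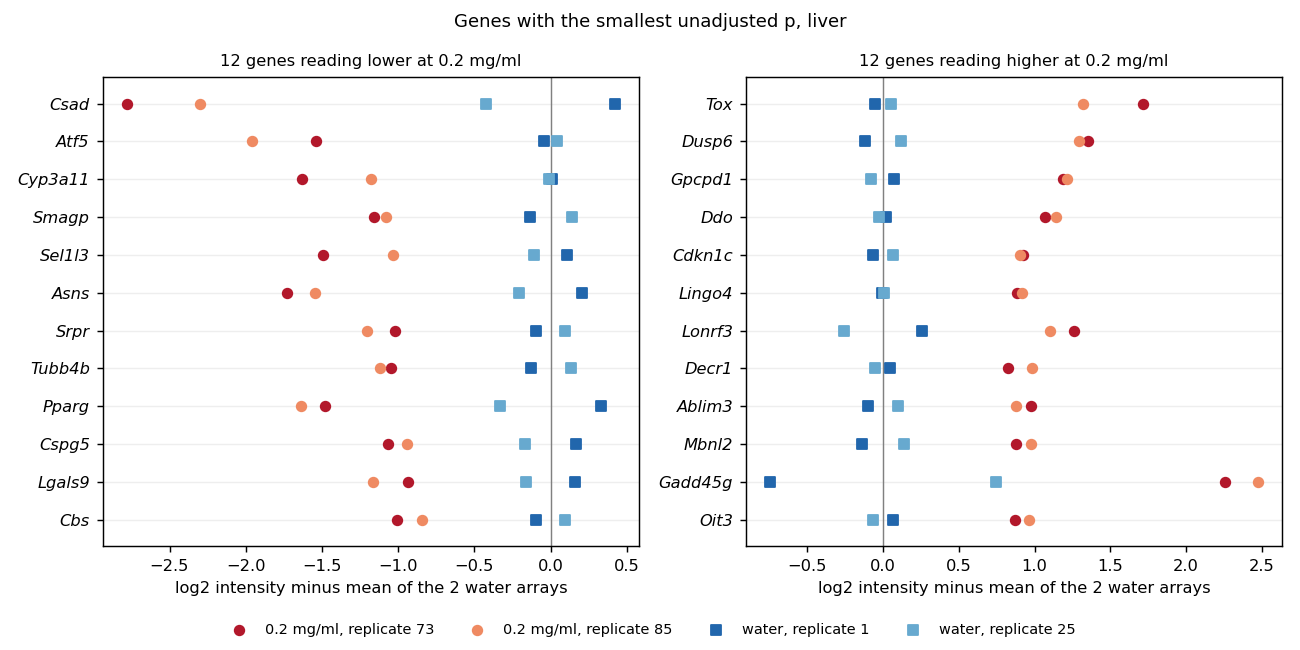
The 12 named genes with the smallest unadjusted p among those reading lower (left) and higher (right) with no overlap between groups, with each array's log2 intensity minus the mean of the 2 water arrays on the x axis. Circles are the 0.2 mg/ml arrays and squares the water arrays. The mean difference from the controls was -2.54 for Csad and 2.37 for Gadd45g, and none passed an adjusted p of 0.05.

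Markers of cells other than hepatocytes were read next, since the tissue was whole liver. In bulk RNA, more cells of a type and more RNA per cell cannot be told apart. Sinusoidal endothelial genes read higher in 18 of 21, with 15 wholly above the controls (20.2% of all features) and 2 wholly below, and 9 had an unadjusted p under 0.05 on the higher side. Oit3, a secreted protein of these cells, read 7.10 and 7.20 at 0.2 mg/ml, against 6.30 and 6.17 in the controls (0.92, SE 0.17, adjusted p = 0.288). Fcgr2b, the inhibitory Fc receptor by which they take up immune complexes, read 8.40 and 8.37 against 7.55 and 7.31 in the controls (0.96, SE 0.18, adjusted p = 0.288). The other probes of Fcgr2b gave 0.04 and 0.60. Clec4g, a lectin of the same cells, read 10.88 and 11.13 against 10.26 and 10.25 in the controls (0.75, SE 0.17, adjusted p = 0.309). The defining scavenger receptor genes Stab1 and Stab2, added after their values were seen, stood at 0.01 and -0.19.

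The list's median was 0.41 over the 4 arrays, 0.52 without control replicate 1 and 0.21 without control replicate 25. Its summed intensity was 4182 and 4512 at 0.2 mg/ml, against 3077 and 2732 in the controls and 3847 and 3476 at 0.1 mg/ml, so the lower dose lay between. Hepatocyte genes had a median of 0.13 over 12 genes, with sums of 72000 and 72780 at 0.2 mg/ml, against 69080 and 67440 in the controls. Stellate cell and fibroblast genes had 14 of 23 higher, with 11 wholly above and 3 wholly below the controls (20.2% and 18.5% of all features). Their median was 0.19, or 0.09 without control replicate 25. Their leading gene was the matrix proteoglycan gene Lum, at 5.90 and 6.06 against 4.90 and 5.17 in the controls (0.94, SE 0.20, adjusted p = 0.297), followed by the stellate cell gene Reln at 0.82.

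Genes of macrophages and Kupffer cells read higher in 18 of 19, with 8 wholly above and 0 wholly below the controls (20.2% and 18.5% of all features). Timd4, the phosphatidylserine receptor of resident Kupffer cells, read 6.09 and 6.53 at 0.2 mg/ml, against 5.21 and 5.86 in the controls (0.78, SE 0.25, adjusted p = 0.423). The lysozyme gene Lyz2 read 7.92 and 8.29 against 6.72 and 7.52 in the controls (0.98, SE 0.33, adjusted p = 0.446), and the macrophage receptor gene Adgre1 read 6.73 and 7.52 against 5.54 and 6.70 in the controls (1.00, SE 0.38, adjusted p = 0.512). In all 3 genes control replicate 1 was the lower control. The list median of 0.33 became 0.09 without control replicate 1, where 15 of 19 genes still read higher, and 0.60 without control replicate 25. Under scaling to the 75th percentile the list median was 0.14, with 16 of 19 higher. Its summed intensity at 0.2 mg/ml, 10370 and 11920, lay between those of control replicates 1 and 25, at 7993 and 12190.

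The 7 measured genes of the MHC class II list, whose products serve antigen presentation to helper T cells, all read higher. Of these 5 lay wholly above the controls, beside 20.2% of all features. H2-Aa, H2-Ea, H2-Eb1, H2-Oa and H2-Ob were not measured, since their probes were detected on too few liver arrays. H2-Ab1, a chain of the class II molecule, read 8.57 and 8.69 at 0.2 mg/ml, against 7.84 and 7.11 in the controls (1.15, SE 0.24, adjusted p = 0.297), and its other probes gave 1.26 and 1.11. Cd74, the invariant chain, read 8.80 and 9.23 against 8.38 and 7.82 in the controls (0.92, SE 0.26, adjusted p = 0.375). H2-DMb1 (0.64), Ctss (0.53) and H2-DMb2 (0.43), which load peptide or cut the invariant chain, lay wholly above the controls, and H2-DMa (0.39) and the master regulator gene Ciita (0.12) overlapped them. Ciita was near the detection limit, undetected on 1 array at 0.2 mg/ml and on 1 control. The median was 0.53, 0.50 without control replicate 1 and 0.40 without control replicate 25. With undetected genes of the list kept as well, it was 0.256. At 0.1 mg/ml the median difference from the same controls was 0.33.

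B cells carry class II molecules as well, but only 3 of their genes were measured, each near the detection limit and undetected on at least 1 of the 4 arrays. Their median was -0.13, and 0.02 with 2 of 3 higher under scaling to the 75th percentile, so no direction is given. T cell and killer cell genes had 8 of 9 higher and a median of 0.29, led by the chemokine gene Ccl5 at 0.90 and the surface glycoprotein gene Thy1 at 0.56. The exception, Cd8b1, read 7.73 and 7.89 against 8.06 and 8.25 in the controls (-0.34), wholly below them. Cd3d, Cd3e, Cd3g and Klrd1 were near the detection limit, each undetected on at least 1 of the 4 arrays. With undetected genes of the list kept as well, its median was 0.041. Dendritic cell genes had a median of 0.07 over 7 genes. The part of these cells in the class II values was not tested.

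Interferon-inducible GTPases, which attack the vacuoles of intracellular parasites, had 7 of 9 genes higher. Of the 9, 4 lay wholly above and 0 wholly below the controls (20.2% and 18.5% of all features). Gbp2 read 6.55 and 7.36 at 0.2 mg/ml, against 5.74 and 5.86 in the controls (1.15, SE 0.27, adjusted p = 0.319). Gbp3 differed by 0.77 (adjusted p = 0.354), Gvin1 by 0.92 (adjusted p = 0.421) and Gbp7 by 0.52 (adjusted p = 0.617). The other 5 genes overlapped the controls. Replicate 85 was the higher of the 0.2 mg/ml arrays in the 4 genes above the controls, and the list median of 0.52 became 0.19 without it and 0.81 without replicate 73. With undetected genes of the list kept as well, the median was 0.135.

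Among antiviral interferon-stimulated genes, 25 of 36 read higher, with 14 wholly above and 2 wholly below the controls (20.2% and 18.5% of all features). Ifi27 read 9.45 and 9.78 at 0.2 mg/ml, against 8.21 and 8.82 in the controls (1.10, SE 0.23, adjusted p = 0.297). Usp18, which limits interferon signalling, read 6.75 and 6.47 against 4.80 and 6.09 in the controls (1.17, SE 0.38, adjusted p = 0.430). Rsad2, which encodes the antiviral enzyme viperin, read 5.86 and 5.87 against 4.997 and 5.519 in the controls (0.61, SE 0.20, adjusted p = 0.437). Ifit3, which binds viral RNA with its partners, read 6.48 and 6.28 against 5.48 and 6.01 in the controls (0.63, SE 0.22, adjusted p = 0.454). In all 4 genes control replicate 25 was nearer to the 0.2 mg/ml arrays, and the list median was 0.17, 0.08 without control replicate 1 and 0.33 without control replicate 25. With undetected genes of the list kept as well, the median was 0.09.

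Promoters of these genes are shown because interferon-activated factors bind a pair of GAAA repeats, the interferon-stimulated response element. The letters GAAANNGAAA were searched on both strands in the same 250-base windows (GRCm38.p6). Of the 5 GTPase and antiviral genes with an unadjusted p under 0.05 on the higher side and a window, 4 had a match (Gbp2, Gbp3, Ifit3 and Rsad2) and Oasl2, named after its value was seen, had none. Over both lists, 14 of 33 genes with a window had a match, beside 3.33% of measured genes with a window and 2.98% of all windows. Both lists were made up of interferon-responsive genes, so this share describes the lists and not these livers. The windows lie at chr3:142620413-142620662 on the plus strand (Gbp2), chr19:34583279-34583528 on the plus strand (Ifit3) and chr12:26456453-26456702 on the minus strand (Rsad2). All matches, in capitals, lie on the opposite strand, 59 bases before the start of Gbp2, 156 and 122 before that of Ifit3 and 120 before that of Rsad2.
Gbp2: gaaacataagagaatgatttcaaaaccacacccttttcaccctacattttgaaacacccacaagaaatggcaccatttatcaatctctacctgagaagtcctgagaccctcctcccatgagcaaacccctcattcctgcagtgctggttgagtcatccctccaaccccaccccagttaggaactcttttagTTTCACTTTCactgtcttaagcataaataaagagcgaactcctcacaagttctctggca
Ifit3: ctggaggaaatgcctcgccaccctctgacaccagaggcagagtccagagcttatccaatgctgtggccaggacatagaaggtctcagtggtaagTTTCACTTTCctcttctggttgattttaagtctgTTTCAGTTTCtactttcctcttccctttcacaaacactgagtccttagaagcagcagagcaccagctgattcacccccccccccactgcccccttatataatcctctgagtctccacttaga
Rsad2: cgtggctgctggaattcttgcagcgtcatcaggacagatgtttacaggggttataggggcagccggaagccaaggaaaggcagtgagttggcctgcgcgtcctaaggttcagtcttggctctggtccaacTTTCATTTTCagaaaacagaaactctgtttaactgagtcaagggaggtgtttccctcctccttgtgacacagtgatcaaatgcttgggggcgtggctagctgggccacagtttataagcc

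**Figure D4:**
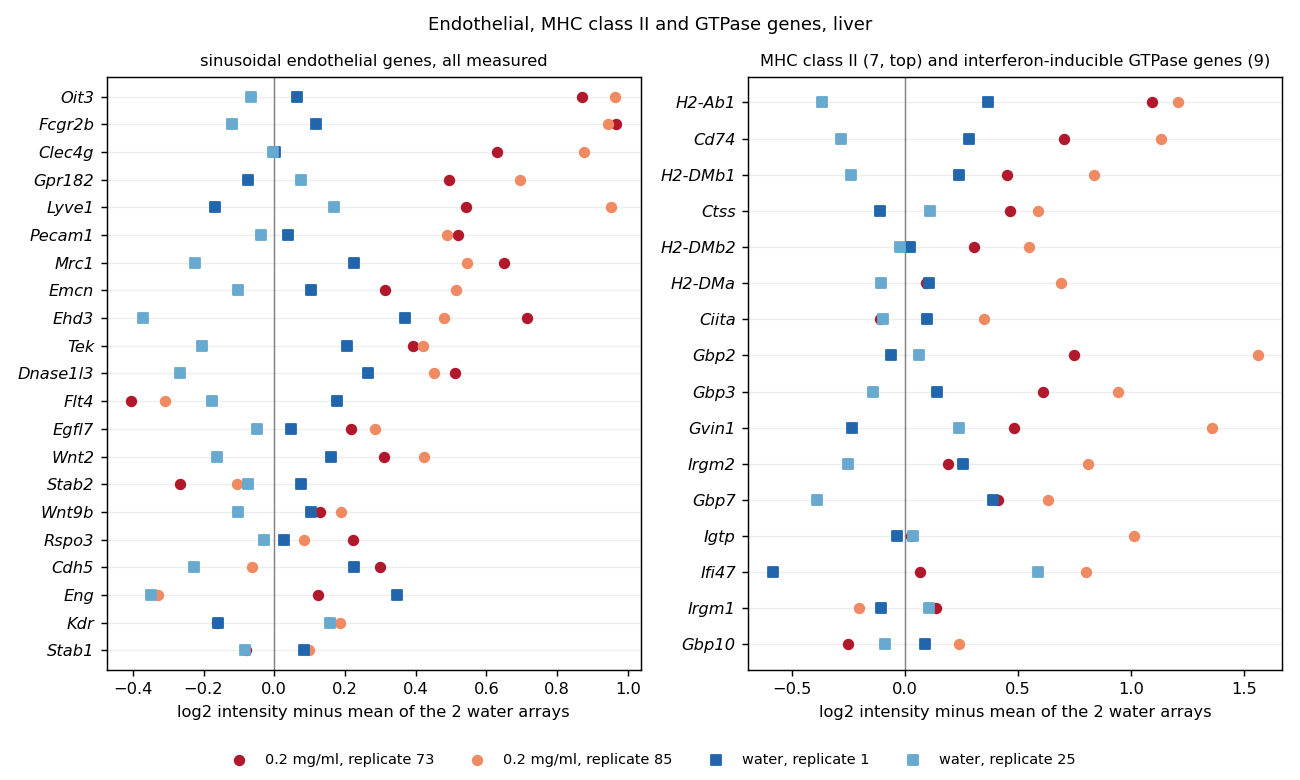
All 21 measured sinusoidal endothelial genes (left) and all 7 MHC class II and 9 interferon-inducible GTPase genes (right), with each array's log2 intensity minus the mean of the 2 water arrays on the x axis. Circles are the 0.2 mg/ml arrays and squares the water arrays. Of the endothelial genes 15 lay wholly above the controls and 2 wholly below (20.2% and 18.5% of all features), and H2-Ab1 and Gbp2 each stood 1.15 above.

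The pathways that curaxins are known to act on were measured too. Of FACT, the subunit gene Supt16 read 6.45 and 6.51 at 0.2 mg/ml, against 6.14 and 6.14 in the controls (0.34, SE 0.17, adjusted p = 0.600), and a second probe gave -0.02. The genes of the other subunit, Ssrp1, and of p53 itself, Trp53, were not measured here. The list of FACT and other histone chaperones had 14 of 19 genes higher and a median of 0.11, which became -0.04 without control replicate 1. Under scaling to the 75th percentile it was -0.001, with 9 higher and 10 lower.

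Of 26 measured p53 target genes, 19 read higher and 7 lower, with 7 wholly above and 2 wholly below the controls (20.2% and 18.5% of all features). At an unadjusted p under 0.05 there were 0 in either direction, beside 4.94% and 3.84% of all features. The list median was 0.21 over the 4 arrays, 0.09 without control replicate 1, 0.29 without control replicate 25 and 0.13 without 0.2 mg/ml replicate 73. With undetected genes of the list kept as well, it was 0.09. Cdkn1a, the cell cycle inhibitor p21 and best known p53 target, read 6.30 and 5.32 at 0.2 mg/ml, against 4.26 and 6.15 in the controls (0.61, SE 0.55, adjusted p = 0.783). The groups overlapped, and the gap between the controls was wider than the difference. Ccng1, cyclin G1, read 7.49 and 7.20 against 7.02 and 6.92 in the controls (0.37, SE 0.17, adjusted p = 0.578), and Zmat3 and Ddb2 differed by 0.33 and 0.37.

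NF-kB subunit and target genes had 16 of 25 higher, with 9 wholly above and 2 wholly below the controls (20.2% and 18.5% of all features). Their median was 0.09, or 0.22 without control replicate 25. Under scaling to the 75th percentile it was 0.003, with 13 higher and 12 lower. Nfkbia, the inhibitor that NF-kB itself induces, read 6.65 and 7.05 at 0.2 mg/ml, against 7.31 and 6.87 in the controls (-0.24, SE 0.26, adjusted p = 0.837), and a second probe gave 0.05. The interleukin gene Il1b read 6.02 and 5.57 against 4.34 and 5.03 in the controls (1.11, SE 0.27, adjusted p = 0.319). Ccl5 read 5.31 and 5.95 against 4.67 and 4.80 in the controls (0.90, SE 0.23, adjusted p = 0.351). The chemokine gene Ccl4 was undetected in the controls and at least 1.39-fold higher at 0.2 mg/ml (adjusted p = 0.383).

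Chemokine and receptor genes had 15 of 22 higher and a median of 0.09. Cxcl13, which attracts B cells, read 5.35 and 5.86 at 0.2 mg/ml, against 4.39 and 4.58 in the controls (1.12, SE 0.21, adjusted p = 0.288). Cxcl9, an interferon-gamma target that attracts T cells, read 7.02 and 8.64 against 5.66 and 6.38 in the controls (1.81, SE 0.48, adjusted p = 0.364). Both lay wholly above the controls, and Cxcl9 was far apart between the 2 arrays at 0.2 mg/ml.

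Heat shock genes were mixed, with 15 of 26 higher, 11 lower and a median of 0.04. The mitochondrial chaperones Hspe1 and Hspd1, which work as a pair, read higher by 0.53 and 0.52 (adjusted p = 0.376 for each). Hspa1b, the inducible Hsp70 gene, read 4.60 and 5.64 at 0.2 mg/ml and was undetected in the controls, at least 1.68-fold higher (adjusted p = 0.566). Hspb1, a small heat shock protein gene, was undetected at 0.2 mg/ml and at least 1.62-fold lower (adjusted p = 0.549).

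The lists of acute phase, neutrophil and cell cycle genes took their direction from 1 control. The median of 33 acute phase genes was 0.01 over the 4 arrays, 0.56 without control replicate 25 and -0.37 without control replicate 1. That of 9 neutrophil genes was -0.28, 0.14 and -0.61 in the same order, and that of 39 cell cycle and DNA replication genes was 0.00, 0.33 and -0.31. Male-biased liver genes had a median of 0.04 over 21 genes, -0.36 without control replicate 25 and 0.21 without control replicate 1. No direction is given for these 4 lists.

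The other lists are given by their medians, beside 0.01 for all features. The median was 0.06 for 21 glycogen metabolism genes, 0.08 for 21 MHC class I genes, 0.04 for 21 apolipoprotein genes and -0.02 for 38 complement and coagulation genes. Ribosomal protein genes had a median of -0.02 over 26 genes, respiratory chain genes -0.04 over 41, bile acid synthesis genes -0.12 over 17 and female-biased liver genes -0.02 over 12. Several of these medians differed in sign without control replicate 1 and without control replicate 25. In that order they were 0.10 and -0.14 for ribosomal, 0.04 and -0.14 for respiratory chain and -0.15 and 0.006 for bile acid genes. For MHC class I, apolipoprotein and complement genes they were -0.02 and 0.17, -0.03 and 0.12, and -0.06 and 0.09. No direction is given for these lists either. Aryl hydrocarbon receptor targets had a median of 0.29 over 5 genes, which became -0.06 without control replicate 25 and 0.061 with undetected genes kept as well. Markers of pericentral and periportal hepatocytes had medians of 0.20 over 14 and 0.12 over 13 genes. The periportal one became -0.19 without control replicate 1, and the pericentral one 0.058 with undetected genes kept as well. Erythroid (11 genes), pancreatic acinar (5), bile duct (5) and adipocyte (5) markers had medians of 0.10, 0.12, 0.03 and 0.33. The adipocyte one became 0.05 without control replicate 25 and 0.069 with undetected genes kept as well.

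**Figure D5:**
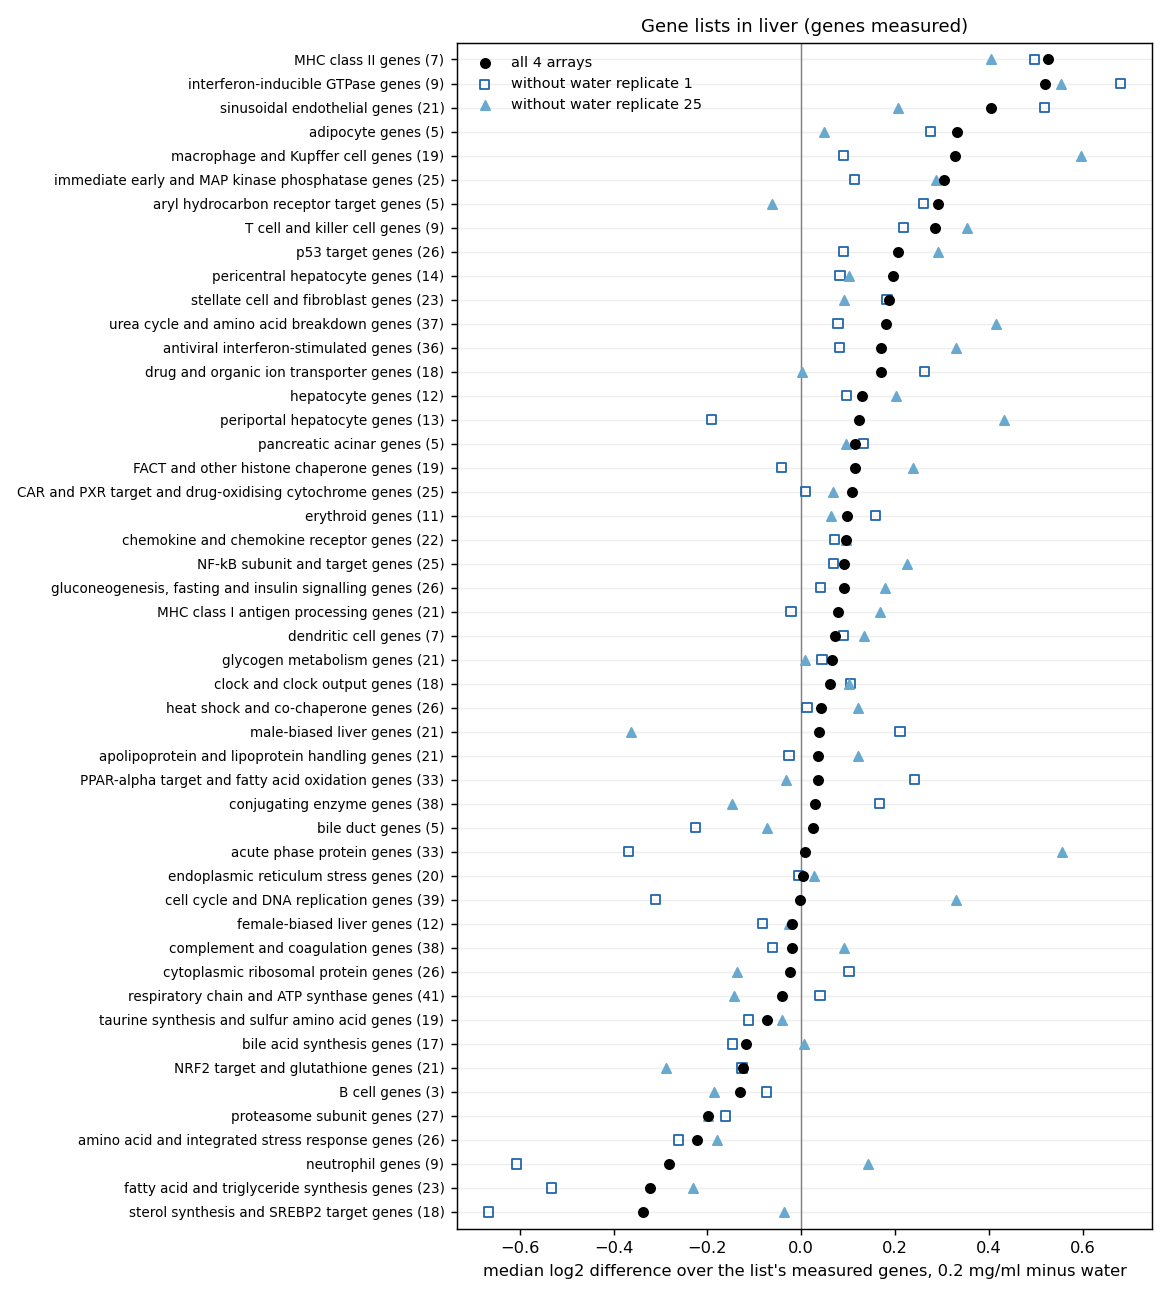
Median log2 difference of 0.2 mg/ml minus water over the measured genes of each of the 49 lists (x axis), with the number of genes in brackets. Black circles use all 4 arrays, open squares leave out water replicate 1 and triangles leave out water replicate 25. MHC class II, GTPase and sinusoidal endothelial genes lay highest at 0.53, 0.52 and 0.41, and sterol genes lowest at -0.34. With undetected genes kept as well, which is not plotted, these 4 medians were 0.256, 0.135, 0.386 and -0.337.

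The response of the liver was set against the lower dose and against the spleen only to see where it differed. Between 0.2 and 0.1 mg/ml, 0 of 12800 features had an adjusted p under 0.05 (0.00%), with Csad, Cyp3a11 and Atf5 at the head of the list (adjusted p = 0.0571, 0.125 and 0.153). In each of these genes the 0.1 mg/ml arrays lay near or above the controls. This test takes its spread from all 3 liver groups, so the gap between the 2 controls enters it, although no control array enters the difference. The count therefore does not show that the 2 doses are alike. The difference between the tissues in the response to 0.2 mg/ml was tested on all 11 arrays, with a single control spleen, which is assumed to vary like the other groups, and with 2 spleen arrays at 0.2 mg/ml whose labels share the number 62. An adjusted p under 0.05 was found in 8 of 16179 features (0.0494%), among them the complement genes C1qb and C1qc and the ficolin gene Fcna of macrophages, named after their values were seen. Liver read 0.29, 0.26 and 0.06 above its controls for these, against 2.56, 2.71 and 2.39 above the lone control in spleen (adjusted p = 0.0129, 0.0275 and 0.0129). No feature of the series was called in this comparison without liver replicate 85, without either spleen array at 0.2 mg/ml or under scaling to the 75th percentile. Csad differed from water by -0.47 in spleen, and its difference in response between the tissues was -1.77 (adjusted p = 0.271). That of Cyp3a11 was -1.68 (adjusted p = 0.119).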

How the data were processed

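Total RNA of 6 livers and 5 spleens was labelled with biotin and hybridised to Illumina mouse bead arrays of 45281 probes, per the labels' protocols. Each deposited intensity is a probe signal exported from GenomeStudio, version 1.6.0 per the submitters' processing notes, with a deposited detection p-value beside it, per the file headers. The deposited series matrix holds log2 values, which were checked against the signals and lay within 0.0898 of the log2 of quantile-normalized signals (all 11 arrays, no background correction).

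The liver signals were processed with neqc of limma 3.58.1 in R 4.3.3 (normexp with the background taken from the detection p-values, offset 16, then quantile normalization and log2). Probes with a detection p under 0.05 on at least 2 liver arrays were kept, and a gene was represented by its kept probe with the highest mean. Of all probes 34885 have 1 gene symbol in the platform annotation, 18 several and 10378 none, and the gene table (34807 probes matched) changed 0 of them. Probes without a symbol were kept as features of their own. The 3 liver groups were fitted with lmFit and eBayes (3 residual and 5.11 prior degrees of freedom), and Benjamini-Hochberg adjustment ran over all 12800 features. The liver-minus-spleen difference was fitted on all 11 arrays. The steps were tested on simulated data.

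The text names 12 genes per direction by smallest p among named genes with no overlap, up to 4 members of each list by smallest p, any member of a list with at most 12 measured genes, and, where tested, Cdkn1a, Hspa1b, Nfkbia, Ssrp1, Supt16 and Trp53. The comparison, the 49 gene lists (1269 genes, 938 measured) and the rule were chosen with earlier results of these data known. Lists are described by counts and medians without a test. If the dimmer group had no array that detected a gene, the fold is a lower bound, for which its values were raised to each array's dimmest detected probe where they lay below it. Promoter windows are from RefSeq (GRCm38.p6). The alternatives were other scaling, background, offset and detection filters, the authors' values, every probe, the 4 arrays alone, all 11 arrays, an intensity trend with robust moderation, and each array left out.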

Additional observations from a re-analysis of the deposited data

Results flagged for a closer look

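In 3 named genes of macrophages the fit of all 11 arrays gave an adjusted p under 0.05 for the difference between liver and spleen in the response to 0.2 mg/ml (limma). The liver-minus-spleen difference was -2.29 for C1qb, -2.47 for C1qc and -2.33 for Fcna (adjusted p = 0.0129, 0.0275 and 0.0129). In liver the 0.2 mg/ml arrays read 7.38 and 7.58 for C1qb, against 7.17 and 7.22 in the controls. C1qc read 7.41 and 7.75 in liver at 0.2 mg/ml, against 7.21 and 7.43 in the controls, and Fcna read 8.19 and 8.15 against 8.10 and 8.12. The spleen side rests on 1 control array, which is assumed to vary like the other groups, and on 2 arrays at 0.2 mg/ml that share the number 62 in their labels. Of all features 8 were called in this comparison, and 0 without either spleen array at 0.2 mg/ml, without liver 0.2 mg/ml replicate 85 or under scaling to the 75th percentile. The values are therefore not shown to be a difference in response between the tissues. No group here had the 4 arrays that a check for an outlying sample needs.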

How the results depend on the processing

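No paired analysis was possible because the groups share no replicate numbers, and slide as a block was not run because the file headers give no slide. With 2 arrays a group, the number of features at an adjusted p under 0.05 at 0.2 mg/ml against water was 0 as reported, 1 under scaling to the 75th percentile and 3 with an intensity trend and robust moderation, and ran over 0 to 542 with 1 array left out. It was 0 without either 0.2 mg/ml array, 175 without control replicate 1 and 542 without control replicate 25, where the lone control array is assumed to vary like the treated livers. Under the other 8 settings and without either 0.1 mg/ml array it stayed at 0. Features higher at an unadjusted p under 0.05 numbered 632 as reported, 421 under 75th percentile scaling, 1224 without a detection filter and 291 to 1477 with 1 array left out, and features lower numbered 492 as reported, 920, 902 and 205 to 1294, and 755 with every probe tested. Between 0.2 and 0.1 mg/ml the calls were 0 as reported, 1 under 75th percentile scaling, 2 with the authors' values, 1 with the strict detection filter, 3 with all 11 arrays, 3 with trend and robust moderation and 0 to 178 with 1 array left out. Of the liver-minus-spleen difference, 8 features were called as reported, 15 with the authors' values, 4 with the strict filter, 0 under 75th percentile scaling and 0 to 12 with 1 array left out. Over all settings the adjusted p of Csad ran from 0.0307 to 0.389, of Atf5 from 0.0497 to 0.389, of Tox from 0.0645 to 0.389 and of Cyp3a11 from 0.0497 to 0.497, and none of these 4 changed sign. Signs were followed over the settings for 109 genes. When 1 array was left out the sign turned for Lcn2 (-3.92 to 3.05), Saa1 (-3.58 to 2.61), S100a8 (-3.93 to 0.40), Cdkn1a (-0.34 to 1.55), Ciita (-0.11 to 0.35) and Stab1 (-0.081 to 0.098). Under 75th percentile scaling it turned for Fcna (-0.10) and Stab1 (-0.15). The small differences of Ass1, Arg1 and Nags also turn sign without control replicate 1. Their 0.2 mg/ml means were 12.64, 12.40 and 5.35, against 12.88, 12.59 and 5.12 on control replicate 25. For Lcn2, Saa1 and S100a8 the lowest value was that without control replicate 1 and the highest that without control replicate 25, and for Cdkn1a likewise. The cause of these shifts was not tested.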

Other observations

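Among features without a gene name, 5 probes had unadjusted p-values as small as those of the named genes in the text. The probe ILMN_2601884 read 9.95 and 9.87 at 0.2 mg/ml, against 8.71 and 8.61 in the controls (1.25, SE 0.18, adjusted p = 0.206, limma). ILMN_2796651 read 7.04 and 6.89 at 0.2 mg/ml, against 7.94 and 8.38 in the controls (-1.19, SE 0.23, adjusted p = 0.297). The groups did not overlap in either probe, and neither passed its test.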
